A study of Mus musculus with 4 samples.

Results

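The 44 genes described here encode proteins of DNA replication, of mitosis and of the G1 phase of the cell cycle. They were taken by gene symbol and comprise 19 replication genes, 21 mitosis genes and 4 G1 cyclins. All but cyclin B1 (Ccnb1, not analysed here) had a probe set with a single symbol, so 43 of the 18193 genes with such a probe set were members. All 43 lay above the filter on low values. The samples were pools of 15 to 20 tissue pieces from ARC/s mouse embryos of 4 to 5 somites at embryonic day 8.5. Foregut endoderm 1 and 2 came from the anterior intestinal portal, the fold where the front gut opens. Mesoderm/ectoderm 1 and 2 joined heart mesoderm with mesoderm and ectoderm of the head, and no sample carried a mutation or a drug treatment per the labels. Number 1 of either tissue was dissected by hand, and number 2 after trypsin and pancreatin, here experiments 1 and 2, so that experiment and way of dissection cannot be told apart. 1 description field names foregut endoderm 2 as ectoderm, against its title and tissue labels.

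Replication origins are licensed in G1, when Cdc6 and Cdt1 load the Mcm helicase ring onto DNA and geminin (Gmnn) later blocks a further round by binding Cdt1. In S phase the GINS complex joins the active helicase, primase and polymerase alpha start new strands, and the clamp PCNA, its RFC loaders, Fen1 and ligase 1 complete them with nucleotides that ribonucleotide reductase supplies. Mitosis is driven by Cdk1 with cyclins A and B and by the Polo and Aurora kinases, while the Bub and Mad proteins hold back anaphase until every chromosome is attached. Transcription of the replication genes is known to peak around the G1/S boundary through E2F factors, and that of the mitosis genes in G2 and M through the DREAM and MuvB complexes at CHR and CCAAT elements. Early embryonic tissues are known to proliferate fast.

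The labels were checked on marker genes before the members were read. Each sum is over the brightest probe set of every listed marker that has one, whether kept or not. The summed intensity of the 12 foregut endoderm markers (11 kept) was 7564 and 25273 in foregut endoderm 1 and 2, against 791 and 2867 in mesoderm/ectoderm 1 and 2. Nkx2-1 was at the lowest level of all 4 arrays. The sum of the 12 heart muscle markers (11 kept) was 13000 and 1273 in foregut endoderm 1 and 2 but 126 and 115578 in mesoderm/ectoderm 1 and 2. Mesoderm/ectoderm 1 thus lacked the heart muscle signal that its label names, and foregut endoderm 1 carried some of it. The 10 neural plate markers (9 kept) summed to 2009 and 4537 in endoderm and to 7000 and 5826 in mesoderm/ectoderm. By gene, 8 of the 9 kept were lower in endoderm in both experiments, with median log2 differences of -3.10 and -2.73. The 7 red blood cell markers of 8 with a probe set (2 kept) summed to 2394 and 219 against 420 and 2456. Hba-a1 and Alas2 were at the lowest level on all 4 arrays. The 10 endothelial markers (7 kept) summed to 816 and 205 against 248 and 650, with Pecam1 at the lowest level. The 8 head mesenchyme markers (6 kept) summed to 2530 and 556 against 521 and 656. By gene, 4 of the 6 kept were higher in endoderm in both experiments and 0 were lower in both. The median intensity of an array was 5.71 to 6.14, and each array had 12470 to 13033 probe sets past the filter. The part of cell makeup in the differences below was not tested, and tissue differences are therefore given within each experiment, those of experiment 2 being free of mesoderm/ectoderm 1. In pooled tissue, fewer cycling cells and less RNA per cycling cell cannot be told apart.

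Promoter windows of 250 bases before the RefSeq gene start (GRCm38.p6) were at hand for 33 members and were searched for the elements named above. An E2F element was counted as TTT, then 2 letters that are each C or G, then CGC. A CHR element was counted as TTTGAA and a CCAAT element as CCAAT, all on both strands. The E2F letters were in 6 of 16 replication promoters (37.5%), 1 of 16 mitosis promoters (6.25%) and 2.16% of the promoters of 27025 genes. The CHR letters were in 2 of 16 replication promoters (12.5%), 6 of 16 mitosis promoters (37.5%) and 18.3% of all. CCAAT was in 11 of 16 (68.8%), 13 of 16 (81.2%) and 37.5%. CHR and CCAAT together stood in 1 of 16 replication promoters, 6 of 16 mitosis promoters and 7.34% of all. The 6 promoters printed next were chosen to show both classes: Cdc6 (chr11:98907901-98908150, plus strand) and Mcm6 (chr1:128359706-128359955, minus strand) for E2F letters, Cdk1 (chr10:69352913-69353162, minus strand) for all 3 elements, Mki67 (chr7:135716380-135716629, minus strand) and Top2a (chr11:99024190-99024439, minus strand) for CHR with CCAAT, and Plk1 (chr7:122159185-122159434, plus strand), whose level differed between the experiments. Each is written 5′ to 3′ and ends at the base before the gene start. Capitals mark the counted elements on either strand, and elements that overlap are joined.
Cdc6: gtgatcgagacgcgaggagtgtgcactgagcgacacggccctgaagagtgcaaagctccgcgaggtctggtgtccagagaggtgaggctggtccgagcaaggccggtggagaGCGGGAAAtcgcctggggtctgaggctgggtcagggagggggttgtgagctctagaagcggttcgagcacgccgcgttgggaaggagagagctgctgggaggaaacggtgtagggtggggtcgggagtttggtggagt
Mcm6: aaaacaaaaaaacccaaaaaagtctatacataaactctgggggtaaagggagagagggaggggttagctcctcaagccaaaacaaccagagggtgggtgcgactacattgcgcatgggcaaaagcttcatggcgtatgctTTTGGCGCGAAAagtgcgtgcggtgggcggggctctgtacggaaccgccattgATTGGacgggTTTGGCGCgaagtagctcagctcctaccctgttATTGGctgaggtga
Cdk1: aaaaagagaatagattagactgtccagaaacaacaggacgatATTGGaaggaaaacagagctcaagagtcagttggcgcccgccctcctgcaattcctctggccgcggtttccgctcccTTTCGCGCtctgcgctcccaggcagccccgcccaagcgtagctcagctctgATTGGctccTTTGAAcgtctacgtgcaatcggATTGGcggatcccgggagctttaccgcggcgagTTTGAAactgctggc
Mki67: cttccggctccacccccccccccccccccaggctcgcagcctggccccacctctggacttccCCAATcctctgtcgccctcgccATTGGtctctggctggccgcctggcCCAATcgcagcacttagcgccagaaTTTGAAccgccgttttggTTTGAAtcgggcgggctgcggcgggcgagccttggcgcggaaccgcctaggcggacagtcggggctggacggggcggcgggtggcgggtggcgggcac
Top2a: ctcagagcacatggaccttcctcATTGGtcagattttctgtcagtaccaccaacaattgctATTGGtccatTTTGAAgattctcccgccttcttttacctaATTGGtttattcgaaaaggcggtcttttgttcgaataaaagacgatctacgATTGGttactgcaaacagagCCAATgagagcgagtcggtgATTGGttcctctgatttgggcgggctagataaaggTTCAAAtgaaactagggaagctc
Plk1: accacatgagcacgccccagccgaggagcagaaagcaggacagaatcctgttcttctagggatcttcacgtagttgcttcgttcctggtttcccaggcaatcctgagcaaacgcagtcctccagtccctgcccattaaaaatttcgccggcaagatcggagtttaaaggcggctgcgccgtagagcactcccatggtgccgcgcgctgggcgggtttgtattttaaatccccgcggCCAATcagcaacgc
In Cdc6 the E2F letters lay 138 to 131 bases before the start, on the opposite strand. In Mcm6 a joined pair lay 110 to 99 bases before it, and another E2F element 47 to 40 bases. Cdk1 had E2F letters 131 to 124 bases before the start and CHR letters at 71 to 66 and 15 to 10 bases. Mki67 had CHR letters at 116 to 111 and 98 to 93 bases, and Top2a had 6 CCAAT elements. These are matches of letters in a window, not measured binding sites.

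Most of the cell cycle genes were within 2-fold between foregut endoderm and its neighbours. Across the 13288 kept probe sets no tissue difference passed limma's test (adjusted p threshold 0.05), so the share called was 0% and the members' count was 0 of 43, with an adjusted p of 1 for each. At an unadjusted p under 0.05, limma put 395 probe sets higher and 105 lower in endoderm, and among members 1 higher (Mki67) and 0 lower. With the experiment as a block, 0 probe sets were called, and limma put 968 higher and 358 lower at that unadjusted p. Among members 2 lay higher (Mki67 and Cenpe) and 1 lower (Gins1) in that fit. In 40 of the 43 members (93.0%) both within-experiment differences were smaller than 2-fold, against 76.3% of the 7802 kept genes. The other 3 were Mki67, Ccnd2 and Ccne1, each past 2-fold in a single experiment. Members were also brighter than all kept genes, with median log2 levels per array of 9.96 to 10.18 against 7.59 to 7.88. The part of level in these shares was not tested. No member was 2-fold higher in endoderm in both experiments, where 3.54% of all genes were, and none was 2-fold lower in both, where 1.24% were.

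**Figure D1:**
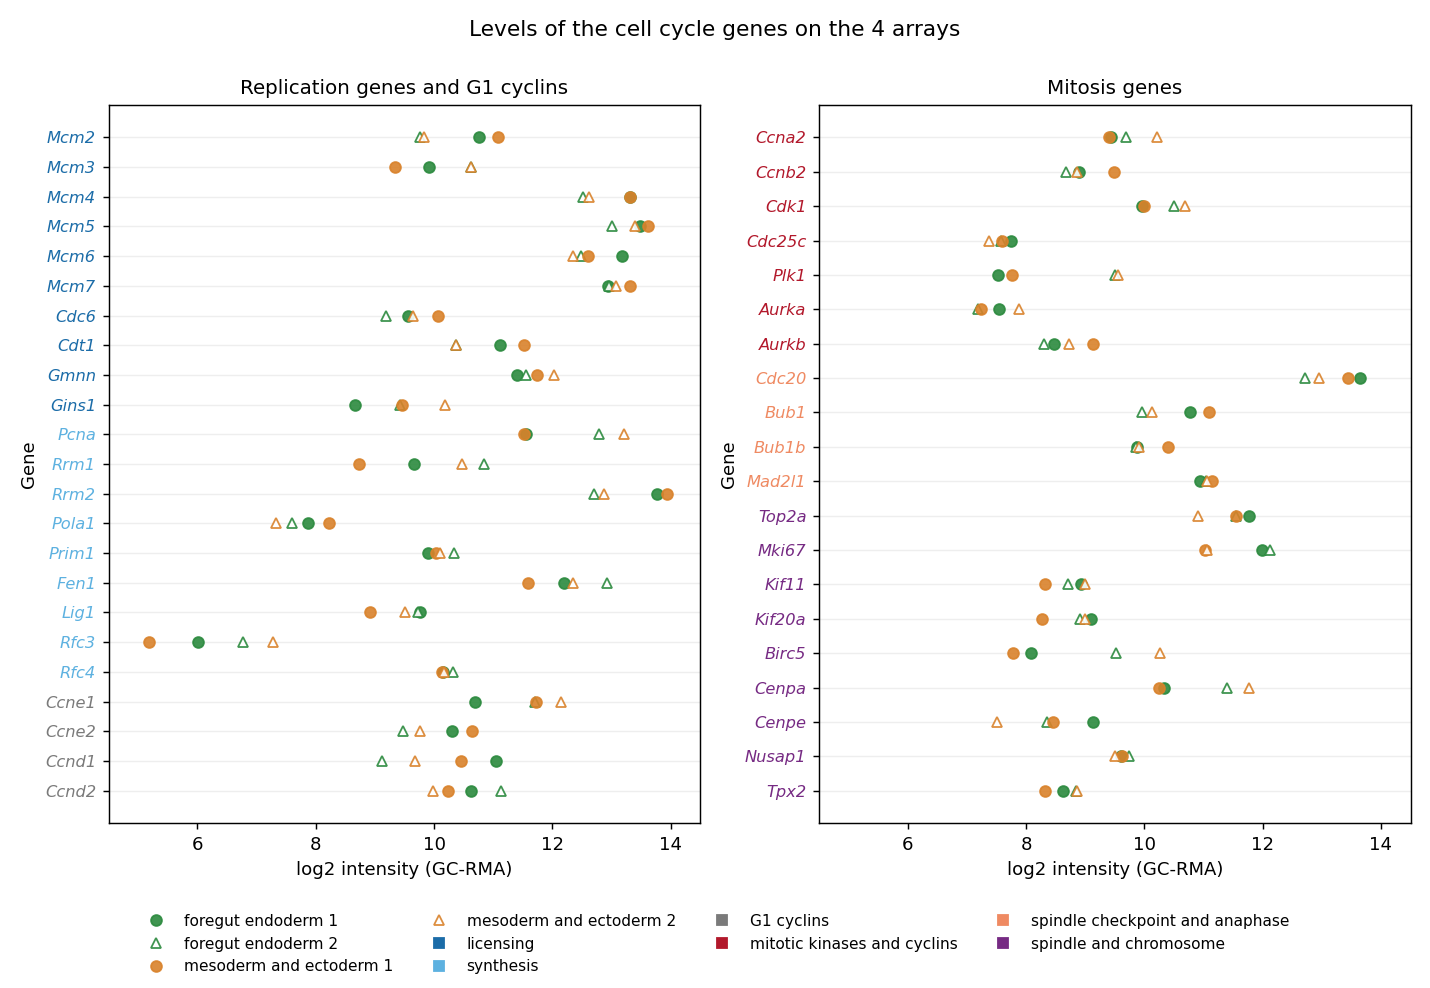
Log2 intensity of the 43 measured members on each of the 4 arrays, grouped by role, with 1 point per array and colour and shape for tissue and experiment. Mki67 is at 11.98 and 12.12 in endoderm against 11.03 and 11.05 in mesoderm/ectoderm, while the points of Plk1 separate by experiment.

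By direction, 11 members were higher in endoderm in both experiments (37.0% of all genes were), 17 were lower in both (24.3% of all genes were), and 15 differed in sign between the experiments. The direction leans on the scaling: with median centring of the arrays the split was 7 higher and 22 lower against 24.3% and 38.0% of all genes. With quantile normalization it was 9 and 15 against 28.4% and 32.4%. The median difference of all genes was itself 0.09 as deposited, -0.02 after quantile normalization and -0.09 after centring. The 2 endoderm arrays lay wholly above the 2 mesoderm/ectoderm arrays for 4 members (Lig1, Ccnd2, Top2a and Mki67), against 18.2% of all genes. They lay wholly below for 8 members (Mcm7, Cdc6, Gmnn, Gins1, Ccne1, Aurkb, Bub1b and Mad2l1), against 9.69% of all genes. Both counts are for the probe set used. On another kept probe set the tissues overlapped for Ccnd2, Mcm7, Ccne1 and Bub1b, but not for Top2a, Gins1 and Aurkb. Across the 43 genes, the differences of experiments 1 and 2 correlated with r = 0.41 (Pearson) and rho = 0.33 (Spearman), against 0.16 and 0.30 over all 7802 genes. These are descriptions over genes that share arrays and are not independent.

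**Figure D2:**
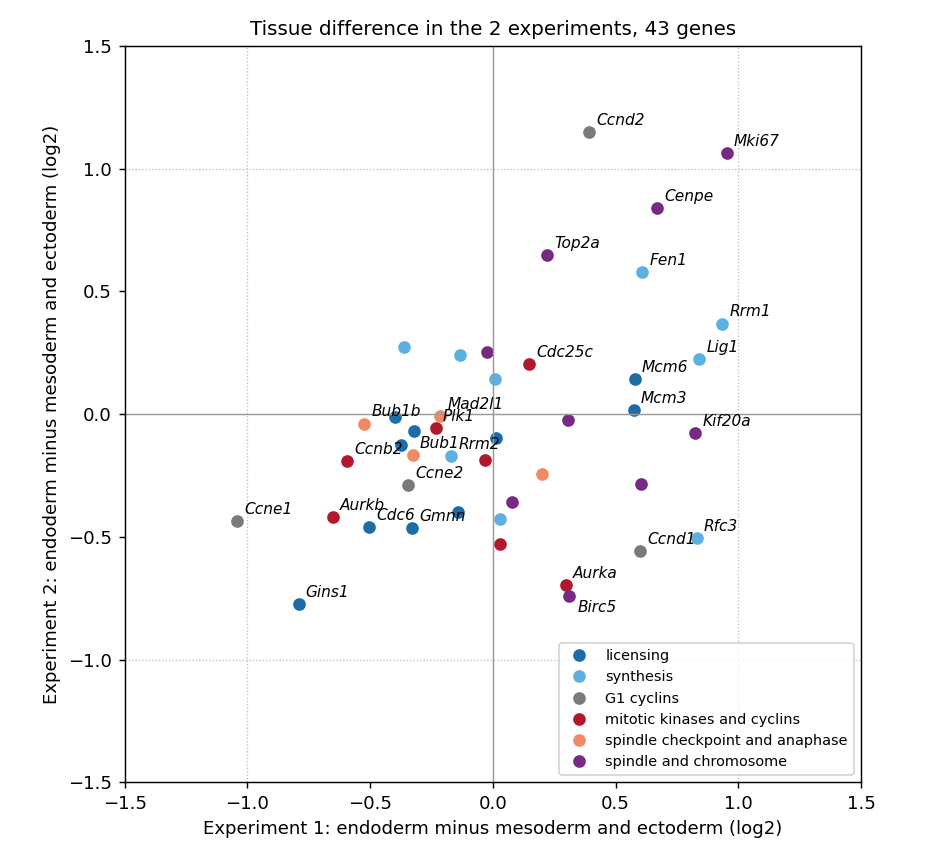
Tissue difference (foregut endoderm minus mesoderm/ectoderm, log2) of each member in experiment 1 on the horizontal axis and in experiment 2 on the vertical axis, coloured by role. Mki67 lies at 0.95 and 1.06 and Gins1 at -0.79 and -0.77, while 40 of the 43 members lie within 1 log2 unit of 0 on both axes.

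Among the 10 licensing genes, 7 were lower in endoderm in both experiments and 2 were higher in both, with median differences of -0.32 and -0.11. After quantile normalization 5 of 10 were lower in both and the median in experiment 2 was 0.03, and after median centring 8 of 10 were lower in both. Probe sets ending in _x_at or _s_at carry sequence shared between transcripts. Without them 6 were lower and 0 higher in both, with medians of -0.19 and -0.46. Gins1, a GINS subunit of the active helicase, was at 8.67 and 9.42 in the endoderm arrays 1 and 2, against 9.46 and 10.19 in mesoderm/ectoderm. Endoderm was the lower tissue in either experiment, by almost the same step (-0.79 and -0.77), although the groups are only just apart because both tissues were higher in experiment 2. The mean difference was -0.78 ± 0.49 (limma SE, n = 2 per tissue), or 1.72-fold lower. Cdc6, a loader of the helicase whose promoter is printed above, was at 9.57 and 9.19 in endoderm and 10.07 and 9.65 in mesoderm/ectoderm. The groups did not overlap, and the difference was -0.48 ± 0.37 (SE, n = 2), or 1.40-fold lower. Gmnn, the inhibitor of Cdt1, was at 11.41 and 11.56 against 11.74 and 12.03, also without overlap. Its difference was -0.40 ± 0.32 (SE, n = 2), 1.32-fold lower.

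On the probe sets used, which all end in _x_at or _s_at, the Mcm helicase subunits did not share a direction. Mcm6 was at 13.18 and 12.49 in endoderm and 12.61 and 12.35 in mesoderm/ectoderm, higher in endoderm in both experiments but with overlapping groups (0.36 ± 0.41, SE, n = 2). Mcm3 was at 9.92 and 10.63 against 9.34 and 10.62. Its difference of 0.57 in experiment 1 was 0.01 in experiment 2. Mcm5 was at 13.48 and 13.01 against 13.62 and 13.40, lower in endoderm in both experiments by -0.14 and -0.40. Mcm2 (-0.32 and -0.07) and Mcm7 (-0.37 and -0.12) had the sign of Mcm5, and Mcm4 lay at 0.01 and -0.10. On the brightest probe sets without those endings, each Mcm subunit was lower in endoderm in experiment 2, while experiment 1 varied. The differences were -0.06 and -0.41 for Mcm2, 0.48 and -0.21 for Mcm3 and -0.41 and -0.52 for Mcm4. They were 0.51 and -0.74 for Mcm5, 0.60 and -0.12 for Mcm6 and 0.83 and -0.79 for Mcm7. Cdt1, the partner of Cdc6 in loading, was lower by -0.40 in experiment 1 and differed by -0.01 in experiment 2.

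Among the 9 synthesis genes, 4 were higher in endoderm in both experiments and 1 was lower in both, with medians of 0.03 and 0.22. After median centring 3 were higher and 2 lower in both, and the experiment 1 median was -0.21; after quantile normalization 3 were higher and 1 lower, with -0.05. Without probe sets of the _x_at and _s_at endings, 2 were higher in both and 0 lower. Fen1, the flap nuclease of lagging strand joining, was at 12.20 and 12.93 in endoderm and 11.59 and 12.35 in mesoderm/ectoderm. On this probe set its step between tissues was alike in the experiments (0.61 and 0.58). The groups overlapped because experiment 2 was higher in both tissues (0.59 ± 0.49, SE, n = 2, 1.51-fold). With the brightest probe set free of those endings, the Fen1 difference was 0.25, from 0.58 in experiment 1 and -0.08 in experiment 2. Lig1, which seals the same fragments, was at 9.76 and 9.74 against 8.91 and 9.51. The endoderm arrays lay above both others (0.53 ± 0.37, SE, n = 2, 1.45-fold), with most of the step in experiment 1. Rrm1, the large subunit of ribonucleotide reductase, was at 9.67 and 10.85 against 8.73 and 10.48. It was higher in endoderm in either experiment (0.93 and 0.37), but its experiments lay further apart than its tissues. Rrm2, the small subunit, was at 13.77 and 12.70 against 13.94 and 12.87, with a difference of -0.17 in both experiments. Pcna, Prim1, Pola1 and Rfc3 had opposite signs in the experiments on the probe sets used, and Rfc4 lay at 0.01 and 0.14.

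On the probe sets used, 1 of the 4 G1 cyclins was higher and 2 were lower in endoderm in both experiments, and 2 were past 2-fold in a single experiment. Ccnd2, a partner of Cdk4 and Cdk6, was at 10.63 and 11.13 in endoderm and 10.24 and 9.98 in mesoderm/ectoderm. The groups did not overlap on the probe set used, and the difference was 0.77 ± 0.37 (SE, n = 2), or 1.71-fold higher. All 6 kept Ccnd2 probe sets were higher in endoderm, by 0.43 to 0.80. Ccne1, the Cdk2 partner at entry into S phase, was at 10.69 and 11.71 against 11.73 and 12.14. Endoderm lay below mesoderm/ectoderm without overlap (-0.74 ± 0.50, SE, n = 2, 1.67-fold lower), by -1.04 in experiment 1 and -0.43 in experiment 2. On the other kept Ccne1 probe set the differences were -0.40 and -0.54, within 2-fold and with overlapping groups. Ccne2 was at 10.30 and 9.47 against 10.64 and 9.76, lower in both experiments with overlapping groups. Ccnd1 was at 11.05 and 9.13 against 10.45 and 9.68, higher in endoderm in experiment 1 and lower in experiment 2 on the probe set used.

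Of the 7 measured mitotic kinases and cyclins, 4 were lower in endoderm in both experiments and 1 was higher in both. After quantile normalization or median centring 5 were lower in both and 0 higher in both. Aurkb, the kinase of the chromosomal passenger complex, was at 8.48 and 8.30 in endoderm and 9.13 and 8.72 in mesoderm/ectoderm. The groups did not overlap (-0.54 ± 0.34, SE, n = 2, 1.45-fold lower). Ccnb2, a B-type cyclin, was at 8.89 and 8.68 against 9.48 and 8.87, with overlap by a small margin (-0.39 ± 0.38, SE, n = 2). Cdk1, the mitotic kinase itself, was at 9.96 and 10.51 against 9.99 and 10.69, so tissues differed by -0.03 and -0.19. Cdc25c, the phosphatase that activates Cdk1, was at 7.74 and 7.58 against 7.59 and 7.38, higher in endoderm by 0.15 and 0.20, and its mean difference was -0.0023 after median centring. Plk1 was at 7.52 and 9.50 against 7.76 and 9.56. Its tissues differed by -0.23 and -0.06, far less than its experiments. Ccna2 (0.03 and -0.53) and Aurka (0.30 and -0.70) had opposite signs in the experiments.

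All 3 checkpoint genes with a single sign were lower in endoderm, by steps that shrank toward 0 in experiment 2. Bub1b, the BubR1 kinase, was at 9.87 and 9.86 in endoderm and 10.39 and 9.90 in mesoderm/ectoderm. Bub1 was at 10.77 and 9.96 against 11.09 and 10.13. Mad2l1, which binds Cdc20 while chromosomes are unattached, was at 10.94 and 11.05 against 11.15 and 11.06. Groups did not overlap for Bub1b and Mad2l1 but were apart by a small margin, and the mean differences of the 3 were -0.28, -0.25 and -0.11. On the other kept Bub1b probe set the groups overlapped, with a mean difference of -0.18. After quantile normalization 1 of the 4 genes of this role was lower in both experiments, and after median centring 4 were. Cdc20, the activator of the anaphase-promoting complex, was at 13.64 and 12.71 against 13.45 and 12.95, with opposite signs in the experiments.

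The 9 spindle and chromosome genes included 3 that were higher in endoderm in both experiments and 0 that were lower in both. After median centring 2 were higher and 1 lower in both, and after quantile normalization 3 and 1. Mki67, a coat protein of mitotic chromosomes and a common label of cycling cells, was at 11.98 and 12.12 in endoderm and 11.03 and 11.05 in mesoderm/ectoderm. The spread within a tissue was small (SD 0.10 and 0.02) beside a step of 0.95 in experiment 1 and 1.06 in experiment 2. The mean was 1.01 ± 0.31 (limma SE, n = 2 per tissue), or 2.01-fold higher, at an adjusted p of 1 (limma, and 0.491 with the replicate block). Mki67 had a single probe set, so no other probe set of these arrays bears on it. Cenpe, a kinetochore motor, was at 9.13 and 8.35 against 8.46 and 7.51, higher in endoderm by 0.67 and 0.84 with overlapping groups (0.76 ± 0.55, SE, n = 2). Top2a, the topoisomerase that untangles sister chromatids, was at 11.77 and 11.56 against 11.55 and 10.91. Its endoderm arrays lay above both others, though foregut endoderm 2 only just (0.43 ± 0.39, SE, n = 2). The motors Kif11 (0.60 and -0.28) and Kif20a (0.82 and -0.08), the spindle factor Tpx2 (0.31 and -0.02), the histone variant Cenpa (0.08 and -0.36) and survivin, Birc5 (0.31 and -0.74), were higher in endoderm in experiment 1 only. Nusap1, a spindle microtubule protein, lay at -0.03 and 0.25.

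Set against each other, replication and mitosis genes did not separate the tissues. The median tissue difference of the 19 replication genes was -0.13 in experiment 1 and -0.07 in experiment 2. That of the 20 measured mitosis genes was 0.11 and -0.12, and all kept genes had 0.15 and 0.01. Replication minus mitosis was therefore -0.25 in experiment 1 and 0.05 in experiment 2, with no common sign. Each class also held members on both sides, with 6 replication genes higher and 8 lower in both experiments and 4 mitosis genes higher and 7 lower. Members with the same promoter letters also had mean differences of both signs, and the part of the elements in direction was not tested. Of the 6 replication genes with E2F letters, the mean difference was negative for Cdc6 (-0.48), Mcm5 (-0.27), Mcm7 (-0.25) and Pola1 (-0.04) and positive for Mcm6 (0.36) and Rfc3 (0.16). Of the 6 mitosis genes with CHR and CCAAT letters, it was positive for Mki67 (1.01), Top2a (0.43) and Kif11 (0.16) and negative for Ccnb2 (-0.39), Cdk1 (-0.11) and Cdc20 (-0.02). The signs of Mcm7, Kif11 and Cdc20 differed between their kept probe sets.

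**Figure D3:**
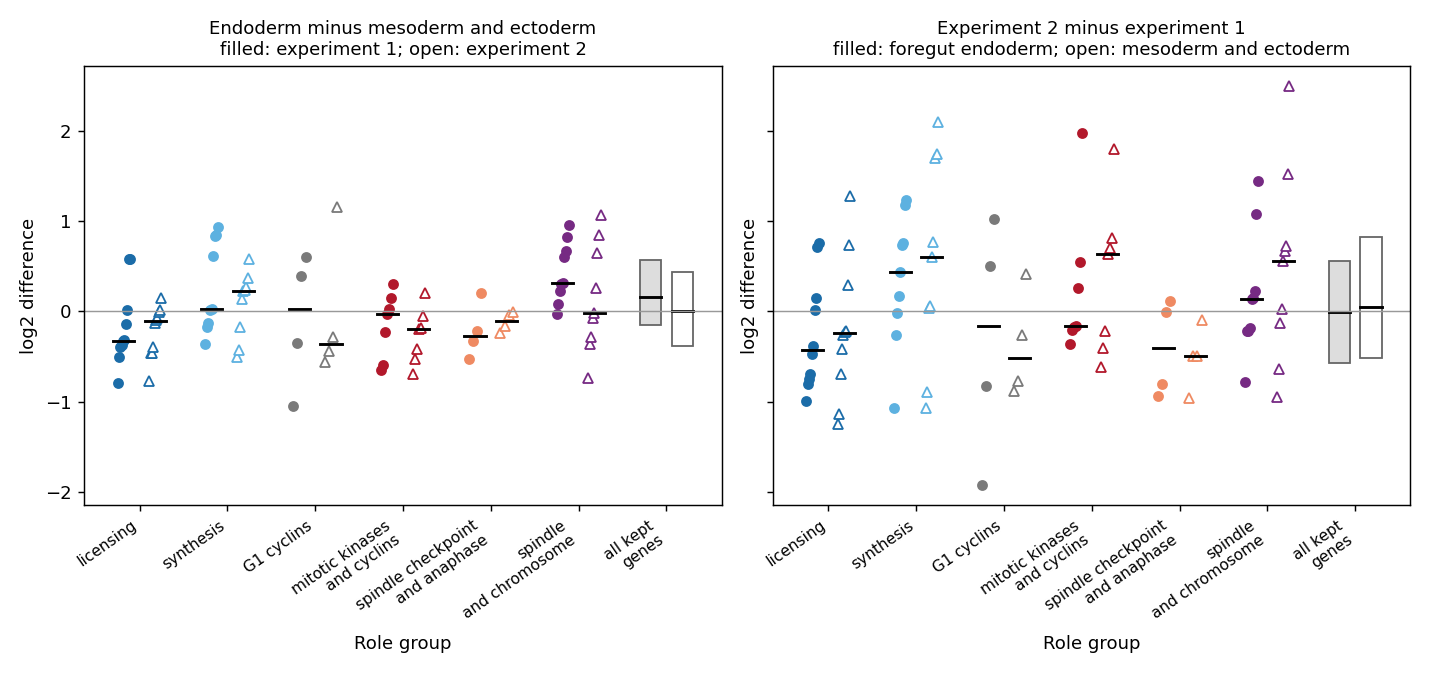
Log2 differences of every member by role group, with the tissue difference on the left (filled points experiment 1, open experiment 2) and experiment 2 minus experiment 1 on the right (filled points foregut endoderm, open mesoderm/ectoderm). Bars are group medians and boxes the quartiles of all kept genes; the licensing medians between tissues are -0.32 and -0.11, the spindle and chromosome medians 0.31 and -0.02, and the points spread more widely on the right.

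Between the experiments the members differed in both directions, with replication and mitosis genes on either side. Across the 13288 kept probe sets no difference between experiments passed (0% called, lowest adjusted p 0.0966, limma with tissue as a term). At an unadjusted p under 0.05 limma put 2172 probe sets higher and 1824 lower in experiment 2, and among members 8 higher and 8 lower. By sign, 17 members were higher in experiment 2 in both tissues (39.3% of all genes were), 18 were lower in both (36.1% of all genes were) and 8 differed, shares near those of all genes. In both tissues 5 members were at least 2-fold higher (Pcna, Rrm1, Plk1, Birc5 and Cenpa), against 11.2% of all genes. Rrm2 alone was at least 2-fold lower in both, against 4.87% of all genes. In 16 of 43 members (37.2%) both experiment differences were larger than both tissue differences, against 33.5% of all genes. The differences in endoderm and in mesoderm/ectoderm, which come from separate arrays, had an r of 0.84 and a rho of 0.85 across the 43 genes, against 0.47 and 0.63 across all genes.

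**Figure D4:**
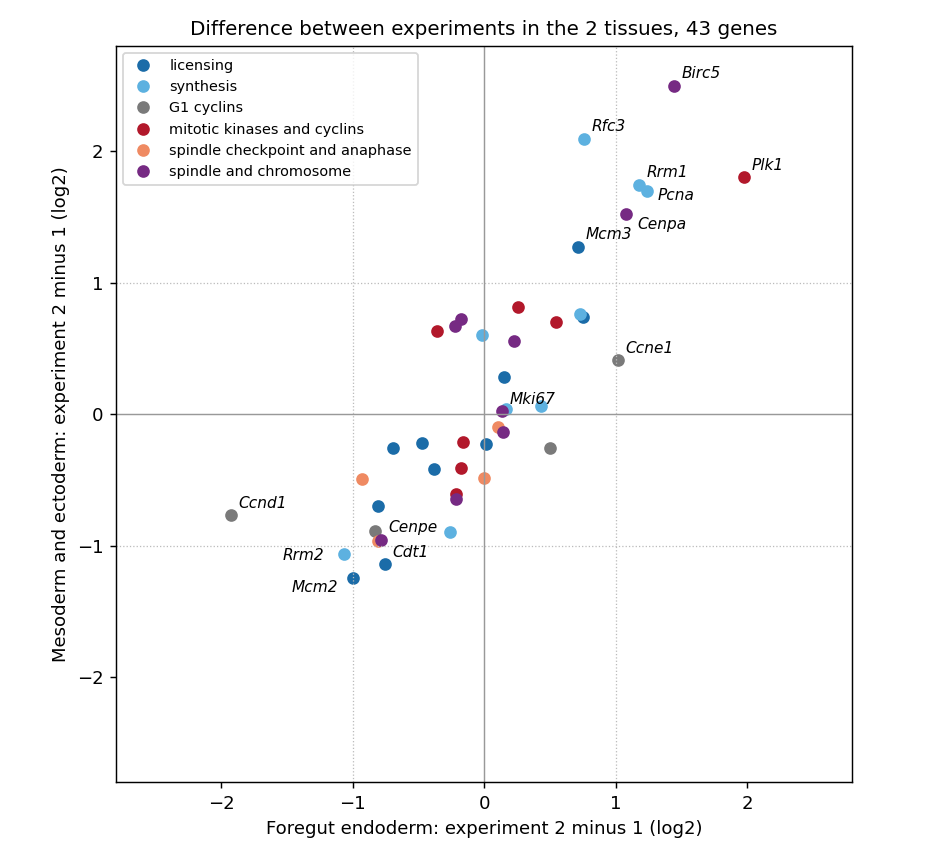
Difference between experiments (second minus first, log2) of each member in foregut endoderm on the horizontal axis and in mesoderm/ectoderm on the vertical axis, coloured by role. Plk1 (1.98 and 1.80) and Birc5 (1.45 and 2.50) lie at the upper right, and Ccnd1 (-1.93 and -0.77) at the lower left.

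The members far apart between experiments came from every phase of the cycle. Plk1, whose arrays are given above, was 1.89 ± 0.23 higher in experiment 2 (SE, n = 2 per experiment), or 3.70-fold, at an adjusted p of 0.0966 (limma). With the filter at log2 above 7 that value was 0.0451, which made Plk1 the sole member called, where 7.99% of the probe sets tested were called. Birc5 was at 8.08 and 7.77 in endoderm and mesoderm/ectoderm of experiment 1 and at 9.53 and 10.27 in experiment 2. Both tissues were higher in experiment 2 without overlap (1.97 ± 0.38, SE, n = 2, 3.92-fold, adjusted p 0.110 by limma). Pcna was at 11.55 and 11.52 in experiment 1 and 12.79 and 13.21 in experiment 2, a 2.76-fold step (1.47 ± 0.26, SE, n = 2). Rrm1 had the same fold of 2.76 between experiments, and Cenpa was 2.46-fold higher in experiment 2.

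On the probe set used for each gene, Ccnd1, Mcm2, Rrm2 and Cdt1 lay the other way. Ccnd1 was 2.54-fold lower in experiment 2 (-1.35 ± 0.40, SE, n = 2), with a step of -1.93 in endoderm and -0.77 in mesoderm/ectoderm, but at -0.73 as the mean of its kept probe sets. Mcm2 was at 10.76 and 11.08 in endoderm and mesoderm/ectoderm of experiment 1 and 9.76 and 9.83 in experiment 2 (-1.12 ± 0.23, SE, n = 2, 2.18-fold lower). Cdt1 was at 11.12 and 11.52 in experiment 1 and 10.37 and 10.38 in experiment 2, 1.93-fold lower (-0.95, and -0.41 as the mean of its kept probe sets). Rrm2 was 2.09-fold lower in experiment 2 (-1.07, and -0.23 as the mean of its kept probe sets), while Rrm1, the other subunit of the same enzyme, was higher. In each of these 4 genes both arrays of experiment 2 lay below both of experiment 1. The experiment medians of the role groups in endoderm and mesoderm/ectoderm were -0.43 and -0.25 for licensing, 0.43 and 0.60 for synthesis, -0.40 and -0.49 for the checkpoint and 0.14 and 0.56 for spindle and chromosome genes. Some of these signs turned with the probe set rule. With the mean of kept probe sets licensing was at -0.04 and 0.25 and spindle and chromosome at -0.34 and 0.03, and without _x_at and _s_at probe sets licensing was at 0.07 and 0.49. Replication minus mitosis was 0.10 in endoderm and 0.07 in mesoderm/ectoderm. The marker sums given above also differed between experiments, and their part in these differences was not tested.

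Several differences depend on which probe set stands for the gene. Of 97 member probe sets 80 were kept, and 26 members had more than 1. The sign of the mean tissue difference was shared by all kept probe sets in 19 of the 26, and the sign of the experiment difference in 15. The tissue sign differed between kept probe sets for Ccna2, Ccnd1, Cdc20, Cenpa, Kif11, Mcm3 and Mcm7. Their direction between tissues is uncertain for this reason. The mean tissue difference ran from -0.14 to 1.24 for Cenpa and from -0.25 to 0.16 for Mcm7. Rrm2 was -1.07 between experiments on the probe set used, which has an _x_at ending, but 1.31 on another. Cenpa was 1.30 on the probe set used and -2.35 on another. Mcm5 was -0.35 on the probe set used and 1.59 on another. Ccnd1 ran from -1.35 to 0.13 over its kept probe sets and Cdt1 from -0.95 to 0.13. The directions of Rrm2, Cenpa, Mcm5, Ccnd1 and Cdt1 between experiments are uncertain on this ground. Both kept probe sets of Mcm2 were lower in experiment 2 (-1.12 and -0.89), and Plk1 and Birc5 had a single probe set each.

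The other genes of the pathway gave the same count of calls, 0 by limma between tissues in every list. Of 39 further replication genes 36 were kept, with 7 higher and 12 lower in endoderm in both experiments and medians of -0.03 and -0.10. Timeless, a fork protection protein, was higher by 0.47 and 0.56, and its partner Tipin was lower by -0.75 and -0.57. Gins3, another GINS subunit, was lower by -0.44 and -0.74, the sign of Gins1, and the checkpoint adaptor Clspn was higher by 0.92 and 0.16. Of 49 further mitosis genes 46 were kept, with 19 higher and 10 lower in both and medians of 0.07 and 0.12. Aspm (0.52 and 1.03), a spindle pole protein, Smc4 (0.53 and 0.90), a condensin subunit, and the checkpoint kinase Ttk (0.48 and 0.96) were the named ones higher in endoderm. The kinase Pbk (-0.91 and -0.94) and the ubiquitin-conjugating Ube2c (-0.58 and -1.22) were lower.

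The regulators of the cycle were further apart between tissues than the machinery in single genes. Of 19 inhibitors 10 were kept, 4 higher and 3 lower in endoderm in both experiments, and Cdkn1a and all 4 Cdkn2 genes listed lay below the filter. Gadd45a, a stress-induced inhibitor, was at 4.69 and 7.63 in endoderm and 7.96 and 9.63 in mesoderm/ectoderm, a difference of -2.64 ± 1.28 (SE, n = 2). Cdkn1c, the inhibitor p57, was at 10.77 and 11.02 against 7.78 and 10.95. It was 2.99 higher in endoderm in experiment 1 and 0.07 in experiment 2, since mesoderm/ectoderm 1 alone was low. That array also lacked heart muscle markers, and the part of cell makeup in the Cdkn1c difference was not tested. Ccng2 (0.61 and 1.31) and Btg1 (1.63 and 0.87) were higher in endoderm in both experiments, while Wee1 (-0.53 and -0.36) and Rb1 (-0.81 and -0.37) were lower. Of 17 E2F and DREAM regulators 12 were kept, with 6 higher and 2 lower in both. Tfdp2, a dimer partner of E2F factors, was 0.74 and 1.98 higher in endoderm, and E2f1 0.94 and 0.76. Tfdp1 (-0.11 and -0.62) and Lin54 (-0.05 and -0.16) were lower. Of 12 other G1 regulators 11 were kept, with 3 higher and 3 lower in both, and Cdk6 was 2.58 higher in endoderm in experiment 1 and 0.37 in experiment 2. Cdk2 (-0.04 and -0.93), Mycn (-0.26 and -0.81) and Cdk4 (-0.43 and -0.07) were lower in both.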

How the data were processed

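The authors deposited an intensity for each probe set of Affymetrix mouse MOE430 arrays. Normalization was by GC-RMA in the GenePattern software, as the series' design text states, and the submitters' processing notes name RMA. RNA was amplified in 2 rounds, per the labels' protocols. Software versions and the scale were not given in the sources used here, and the values were read as linear. A lower bound of 1 touched no value, and log2 of the deposited intensity was taken. Of 45101 probe sets, 13288 that were not controls and had log2 above 5 on at least 2 of 4 arrays were kept. Names come from GEO's platform annotation (34945 probe sets with 1 symbol, 932 with several, 9211 with none). The probe set with the highest mean stood for a gene, giving 7802 genes. On an array, 41.4% to 44.8% of all probe sets were within 0.1 log2 of the lowest value.

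The tissue comparison used limma (version 3.58.1, R 4.3.3; two-sided, Benjamini-Hochberg over all kept probe sets, threshold 0.05), without a replicate block, and experiments with tissue as a term. A limma SE of a tissue difference therefore includes the shift between experiments. With 2 arrays per tissue, from pooled pieces, the number of arrays limits precision. The sample numbers pair the samples, since the labels' protocols tie each number to a way of dissection. Deviations from the tissue means of same-numbered arrays had a correlation of 0.56 across probe sets. The fit was tested on simulated data. Named members are, in each role group, up to 3 each way with the same sign in both experiments, the brightest member, and up to 4 each way between experiments; of other lists, up to 3 each way by smallest p. Members, role groups and lists were chosen with earlier results of these data known. Promoters and motif searches are from RefSeq tables; 11 members had no window. Alternatives were other scalings, filters, a pseudocount of 16, other probe set rules, leaving out each array and the block.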

Additional observations from a re-analysis of the deposited data

Results flagged for a closer look

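In 2 members the tissues differed by at least 0.5 log2 units in opposite ways in the experiments, on the probe set used for each. That size was chosen after the data were seen. Rfc3, a subunit of the clamp loader, was 0.83 higher in foregut endoderm in experiment 1 but at -0.50 in experiment 2. Its values were 6.01 and 6.77 in endoderm and 5.18 and 7.28 in mesoderm/ectoderm, so mesoderm/ectoderm 1 was the lowest array. The other kept Rfc3 probe set lay at 0.57 and 0.02, without the change of sign. Cyclin D1 (Ccnd1) was 0.60 higher in endoderm in experiment 1 but at -0.56 in experiment 2, and foregut endoderm 2 was its lowest array at 9.13. Other kept Ccnd1 probe sets lay at -0.29 and -0.50 and at 0.18 and 0.01, also without a change of sign. The difference between experiments was not tested, since each held 1 array per tissue.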

How the results depend on the processing

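Calls between tissues were 0 in every setting that was run, the replicate block included (0 probe sets). Calls between experiments numbered 673 with the filter at log2 above 7, 878 with quantile normalization and 423 with median centring, against 0; of the members, Plk1 was called in the first of these settings only, and the cause was not tested. Members higher in both experiments numbered 7 with median centring and 7 without _x_at and _s_at probe sets (a setting chosen after seeing the data), and 9 to 16 when an array was left out. Members lower in both numbered 11 to 19 when an array was left out, with 11 without foregut endoderm 2. The replication median between tissues (-0.04) was -0.11 with the stricter filter, -0.10 with quantile normalization, -0.22 with centring, -0.17 with cyclins E1 and E2 added, and -0.25 to 0.025 with an array left out. The mitosis median between tissues (-0.11) was -0.29 with centring and -0.075 (which is without mesoderm/ectoderm 1) to 0.14 with an array left out. Replication minus mitosis (0.07) was -0.061 with cyclins E1 and E2 added, -0.0049 with the mean of probe sets, 0.0024 with the stricter filter, 0.0096 with quantile normalization and -0.39 to 0.10 with an array left out. Between experiments the replication median (0.10) was -0.0025 with the stricter filter, -0.084 with quantile normalization, 0.050 with centring, 0.39 with the mean of probe sets, 0.34 without _x_at and _s_at probe sets, and 0.017 to 0.036 with an array left out. The mitosis median (0.04) was -0.11, -0.0087, -0.17 and 0.081 under quantile normalization, centring, the mean of probe sets and without _x_at and _s_at probe sets, and -0.083 to -0.035 with an array left out. With an array left out, the difference between experiments comes from the other tissue alone. Those ranges between experiments therefore restate the medians within each tissue.

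Among single members, the tissue difference turned sign for Cdc25c with centring (-0.0023), and with an array left out for Plk1 (-1.13 to 0.84), Mcm3 (-0.34 to 0.93), Rrm1 (-0.22 to 1.52), Rrm2 (-0.70 to 0.36), Ccne2 (-0.76 to 0.12) and Bub1 (-0.73 to 0.24). Without a change of sign, leaving out an array gave 0.28 to 1.23 for Cenpe, 0.11 to 0.76 for Top2a, 0.21 to 0.98 for Fen1, 0.23 to 0.83 for Lig1, -1.25 to -0.23 for Ccne1, -1.16 to -0.41 for Gins1, -0.69 to -0.27 for Cdc6 and 0.94 to 1.08 for Mki67. These pair a lone array of 1 experiment with both arrays of the other tissue. Of the values of single members in other settings, 338 kept their direction and, where tested, their side of the threshold. Leaving out an array was not run for calls between experiments, as no residual degrees of freedom remain. The replicate block changed no other call.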
